A study of Mus musculus with 155 samples.

Results

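The 10 genes described here, Dazl, Ddx4, Sycp3, Sycp1, Mael, Stk31, Hormad1, Taf7l, Tex101 and Slc25a31, are germ cell and meiosis genes that somatic cells keep silent. They were chosen by name out of the 55471 genes of each count table, and all 10 were found in each table. The libraries came from KH2 mouse embryonic stem cells (ESCs) with a Dox-inducible FLIP-in locus, from which a SNAP- and HA-tagged H3.3 was expressed as WT-H3.3, H3.3K27M (lysine 27 changed to methionine) or H3.3K27L (lysine 27 changed to leucine). All groups, the WT-H3.3 controls included, carried a transgene and received 1 µM Dox, and no group without Dox was analysed here. The 32 ESC libraries held 2 replicates of untreated and GSK343-treated WT-H3.3 cells, of H3.3K27M cells and of H3.3K27L cells at each of 4, 8, 24 and 72 h of Dox, where GSK343 inhibits EZH2, the methyltransferase of PRC2. These cells were grown in serum with LIF and 2i. The 6 RA-treated libraries were cells of the 3 lines grown with retinoic acid and without LIF and 2i, 1 library per line at 24 and at 72 h of Dox. The 4 oligodendrocyte progenitor cell (OPC) libraries came from the H3.3K27M line and the WT-H3.3 line, 1 library per line at the same times of Dox. The OPC columns of 72 h carry replicate number 2 where the sample titles carry 1, and were matched by line and time. Each line descends from selected clones, so a feature of a clone and an effect of its histone cannot be told apart.

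Germline genes of this kind share a CpG-rich promoter that carries DNA methylation in somatic cells. In ESCs they are also held down by PRC1.6, a Polycomb complex that reaches DNA through MGA with MAX, which bind an E-box, and through E2F6, with PCGF6 and L3MBTL2 as further subunits. Growth in 2i lowers DNA methylation, and ESCs are known to make low amounts of several of these transcripts. The genes fall into 3 roles. Dazl and Ddx4 (an RNA-binding protein and an RNA helicase of germ cells), Mael and Stk31 act on germline RNA, Mael in the piRNA pathway that silences transposons. Sycp1 and Sycp3 are structural proteins of the synaptonemal complex, which joins homologous chromosomes in meiosis, and Hormad1 marks the chromosome axis before pairing. Taf7l is a germ cell paralog of a TFIID subunit, Tex101 a membrane protein of testicular germ cells and Slc25a31 an ADP/ATP carrier of sperm mitochondria.

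The promoter sequences of 4 of the genes are shown as examples of both directions between ESCs and RA-treated cells. Dazl and Hormad1 had the largest falls of the 10 there, and Ddx4 and Taf7l are 2 of the 3 that rose. Each sequence is the 250 bases before the start of the gene in RefSeq on GRCm38.p6, 5′ to 3′ on the strand of the gene, and capitals mark the E-box CACGTG. The Dazl sequence lies at chr17:50293621-50293870 (minus strand) and the Hormad1 sequence at chr3:95559427-95559676 (plus strand). The Ddx4 sequence lies at chr13:112652311-112652560 (minus strand) and the Taf7l sequence at chrX:134476491-134476740 (minus strand).
Dazl: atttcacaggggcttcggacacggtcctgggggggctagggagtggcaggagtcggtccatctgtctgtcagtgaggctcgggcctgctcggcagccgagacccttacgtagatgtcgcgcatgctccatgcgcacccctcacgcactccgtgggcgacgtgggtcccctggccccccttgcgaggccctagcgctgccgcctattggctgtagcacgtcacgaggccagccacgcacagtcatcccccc
Hormad1: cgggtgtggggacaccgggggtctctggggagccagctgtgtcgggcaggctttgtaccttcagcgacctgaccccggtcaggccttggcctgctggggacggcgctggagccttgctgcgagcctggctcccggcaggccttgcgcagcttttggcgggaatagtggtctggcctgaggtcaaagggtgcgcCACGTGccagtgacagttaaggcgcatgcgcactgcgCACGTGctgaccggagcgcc
Ddx4: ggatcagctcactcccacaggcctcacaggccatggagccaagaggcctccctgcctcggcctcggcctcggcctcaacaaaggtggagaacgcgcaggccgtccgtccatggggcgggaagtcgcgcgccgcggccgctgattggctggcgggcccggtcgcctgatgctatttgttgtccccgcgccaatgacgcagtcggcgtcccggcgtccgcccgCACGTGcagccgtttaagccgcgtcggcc
Taf7l: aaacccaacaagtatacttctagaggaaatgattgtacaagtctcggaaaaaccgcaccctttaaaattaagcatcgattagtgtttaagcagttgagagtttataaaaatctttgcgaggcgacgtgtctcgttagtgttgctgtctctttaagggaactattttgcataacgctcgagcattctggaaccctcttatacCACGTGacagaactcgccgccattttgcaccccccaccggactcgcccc
In these windows the E-box was found once in Ddx4 and in Taf7l, 2 times in Hormad1 and not in Dazl.

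Over all 10 genes, 8 had the E-box CACGTG, which is its own reverse complement, within the 250 bases, and Dazl and Tex101 did not. The same element was found in 6.86% of the 27025 genes with a promoter sequence. Its first base lay at -29 from the gene start in Ddx4, -94 in Sycp1, -223 in Mael, -55 in Stk31, -49 in Taf7l and -93 in Slc25a31. Sycp3 held it at -64 and -43, and Hormad1 at -57 and -20. The E2F element TCCCGC, read on both strands (GCGGGA on the other), was found in Ddx4, Sycp3, Mael and Hormad1 and in 18.8% of all promoters. The median ratio of observed to expected CpG was 0.781 over the 10 promoters and 0.403 over 27022 promoters of all genes. A match describes the letters of the window, not a bound site. The promoter coordinates are of another build than the gene coordinates below, which are those of NCBIM37 (mm9), the build of the count tables.

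**Figure D1:**
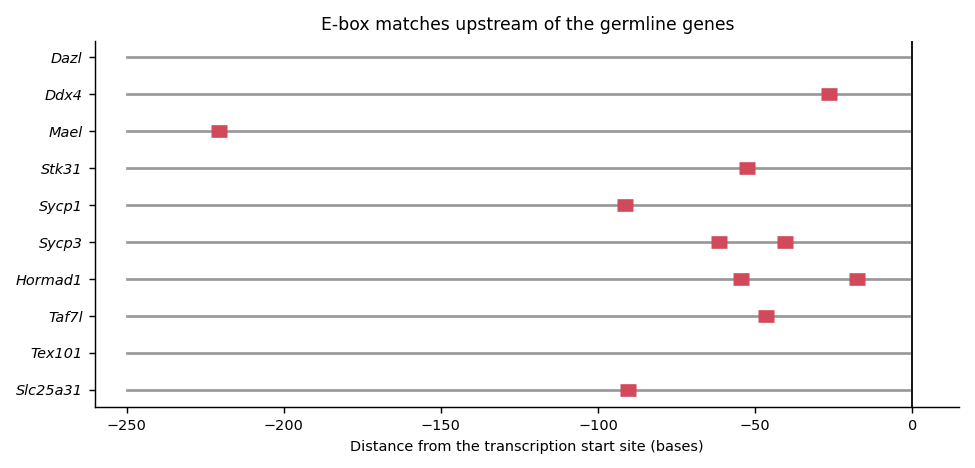
Positions of the E-box (filled marks) in the 250 bases before the start of each of the 10 genes, with the distance from the gene start in bases on the x axis and 1 row per gene. 8 genes hold at least 1 match, most of them within 100 bases of the start, and the rows of Dazl and Tex101 are empty.

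Total counts ran from 68378 to 21161392 per library in ESCs, 2239137 to 22269533 in RA-treated cells and 7499258 to 12387113 in OPCs. The shallowest library, replicate 2 of H3.3K27L at 72 h, stood apart: it held 2 counts of Dazl, 6 of Sycp1, 3 of Hormad1 and none of the other genes. Its values are given apart from the other libraries, and the levels below are CPM, counts scaled to library size with TMM normalization factors. ESCs expressed Pou5f1 (350 to 941 CPM) and Nanog, which were at most 5.34 and 3.34 CPM in RA-treated cells. The RA-treated cells are labelled neural progenitor cells, and the summed level of 10 neural progenitor markers was 193 to 741 CPM in them against 42.3 to 117 in ESCs, while 8 extraembryonic endoderm markers summed to 709 to 6797 CPM against 41.0 to 157. OPCs expressed Olig2 (303 to 1140 CPM), while Sox10, another defining OPC gene, was at 0.158 to 3.72 CPM. In H3.3K27L cells the Y-linked gene Eif2s3y was at 0.506 to 4.56 CPM in the 7 deeper ESC libraries, against 46.8 to 80.2 in WT-H3.3 ESCs. The stages were sequenced as separate tables and the library kit (QuantSeq 3′ or KAPA) of each is not given in the sources used here, so stage, table, experiment and possibly kit cannot be told apart.

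All 10 genes were detected in ESCs, with 316 to 10655 counts each summed over the 32 libraries, and all passed the filter on low counts. In WT-H3.3 ESCs, Dazl (chromosome 17, 50418719 to 50432924, minus strand) was at 42.9 ± 15 CPM (SD, n = 8), with a lowest value of 21.8, a median of 43.7 and a highest of 61.4. Ddx4 (chromosome 13, 113388541 to 113442518, minus strand) was at 18.8 ± 8.58 CPM, from 12.4 over a median of 14.2 to 32.7. Stk31 (chromosome 6, 49345603 to 49419500, plus strand), a kinase of the germ cell granule, was at 31.7 ± 16.1 CPM, from 11.2 over 25.1 to 57.6. These 3 RNA regulators varied between libraries by more than 2-fold, as did the other genes of the list. Mael (chromosome 1, 168131516 to 168168875, minus strand) was at 3.61 ± 1.26 CPM, from 1.86 over 3.67 to 5.50. Gm17060 overlaps Stk31 on the other strand, and whether the counting used strand is not given in the sources used here.

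Of the meiotic chromosome proteins, Hormad1 (chromosome 3, 95363599 to 95391593, plus strand) was at 23.8 ± 7.56 CPM in WT-H3.3 ESCs (SD, n = 8), from 11.1 over a median of 23.3 to 34.1. Sycp1 (chromosome 3, 102622422 to 102740023, minus strand) was at 12.9 ± 7.55 CPM, from 6.49 over 8.88 to 25.4. Sycp3 (chromosome 10, 87922314 to 87935981, plus strand) was at 3.69 ± 1.39 CPM, from 2.04 over 3.73 to 6.60, and it overlaps Chpt1 on the other strand. The spermatogenesis genes were the least covered of the list. Taf7l (chromosome X, 130994657 to 131011029, minus strand) was at 2.91 ± 2.12 CPM, from 0.663 over 2.14 to 6.22. Tex101 (chromosome 7, 25453031 to 25457069, minus strand) was at 1.64 ± 2.04 CPM, from 0.133 over 0.618 to 6.15, which are 2 to 90 counts per library. Slc25a31 (chromosome 3, 40512777 to 40529515, plus strand) was at 1.22 ± 1.01 CPM, from 0.25 over 0.820 to 3.18, and its SD was close to its mean. Libraries are bulk samples, so more cells with a transcript and more transcript per cell cannot be told apart at any of these values.

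**Figure D2:**
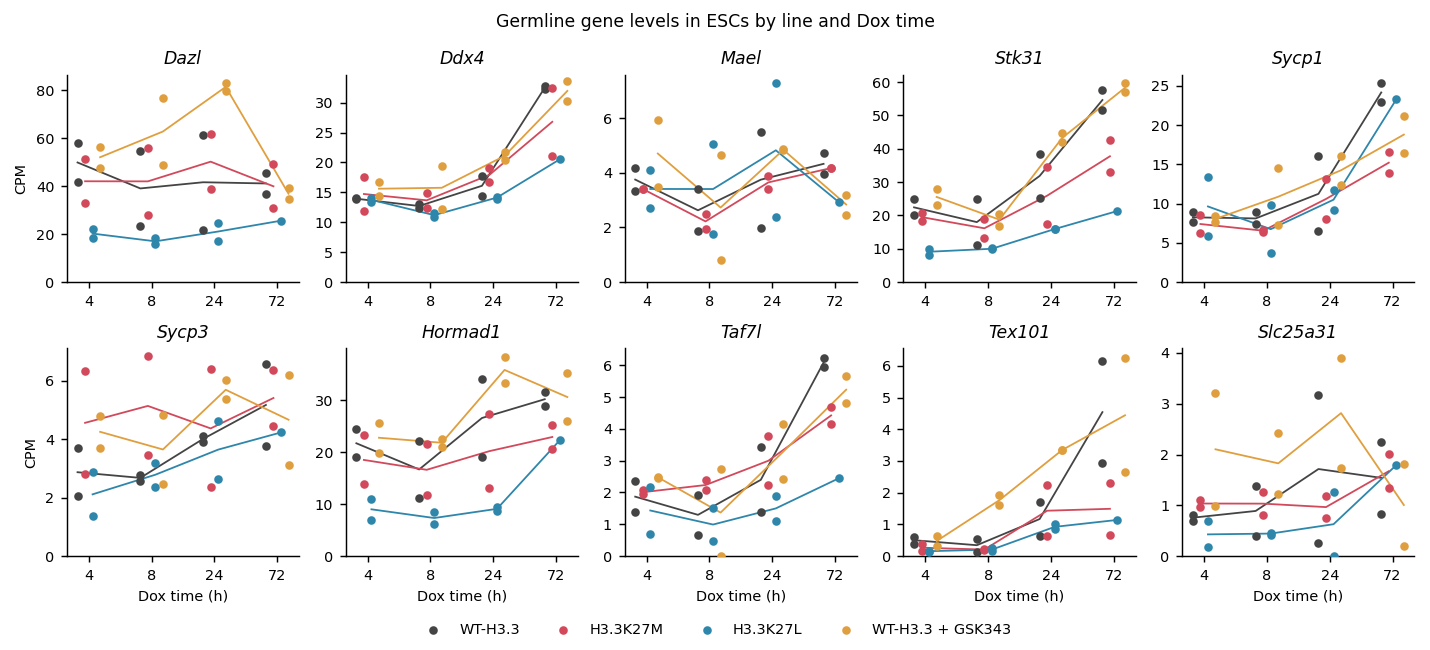
Level of each of the 10 genes (CPM, scaled by TMM factors) in ESCs against time of Dox in h, 1 panel per gene, with points for libraries coloured by line or treatment and lines through the means of the replicates (2, or 1 for H3.3K27L at 72 h, where the library of 68378 counts is left out). Ddx4, Stk31 and Tex101 are highest at 72 h in WT-H3.3 cells, and Dazl, Stk31 and Hormad1 are lowest in the H3.3K27L line at most times.

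The first comparison asked whether H3.3K27M changed these genes. H3.3K27M ESCs held them at levels that overlapped those of WT-H3.3 ESCs for each of the 10 genes. Dazl was at 43.5 ± 12.6 CPM (SD, n = 8; WT-H3.3 42.9 ± 15), from 28.2 over a median of 43.8 to 61.7. With the quasi-likelihood test of edgeR over the 4 time-matched differences (8 against 8 libraries), 0 of the 10 genes were called, against 0.0143% of the 14012 genes tested. A gene was called at a Benjamini-Hochberg adjusted p under 0.05 over all genes tested and a fold change above 2 or below 0.5. None of the 10 had an unadjusted p under 0.05, and DESeq2 called 0 of them. The lowest p-values were those of Stk31 (log2 fold change -0.29, SE 0.16, adjusted p = 0.515), Sycp3 (0.45, SE 0.25, adjusted p = 0.52) and Tex101 (-0.67, SE 0.40, adjusted p = 0.541). The 95% interval of the log2 difference was -0.38 to 0.43 for Dazl and -0.23 to 0.27 for Ddx4. It reached -1.46 to 0.12 for Tex101, so a 2-fold lower level of this gene lies within it.

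At 24 and 72 h alone (4 against 4 libraries) H3.3K27M again gave 0 called genes among the 10, with 0 of them at an unadjusted p under 0.05 in edgeR and 0 called by DESeq2, where 0% of all genes were called. The lowest p-values belonged to Stk31 (-0.41, SE 0.23), Hormad1 (-0.39, SE 0.26) and Tex101 (-0.64, SE 0.44), each at an adjusted p of 0.992. Of the 10 log2 fold changes 8 were below 0, with a median of -0.21 against -0.00 for all genes tested. By their replicate numbers the libraries of H3.3K27M and WT-H3.3 are paired. Replicate 1 of Dazl, Stk31, Hormad1, Tex101 and Slc25a31 was higher than replicate 2 at 4 of 4 times in both lines. For Dazl the replicate means were 54.8 and 31 CPM in WT-H3.3 and 54.4 and 32.6 CPM in H3.3K27M cells. For Dazl this spread between replicates was larger than the difference between the lines. Within the replicate pairs of 24 and 72 h, Stk31 and Hormad1 were lower in H3.3K27M in 4 of 4 pairs, as 11.2% of all genes were. Stk31 was at 38.4 and 25.3 CPM at 24 h and 57.6 and 51.7 at 72 h in WT-H3.3, and at 34.4 and 17.4 and at 42.5 and 33.0 in H3.3K27M cells. With the replicate number as a block edgeR also called 0 of the 10 (Stk31 -0.43, adjusted p = 0.937, and Hormad1 -0.40, adjusted p = 0.948). That block is 1 term shared by all ESC groups, so it is not a paired test of these lines.

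GSK343-treated cells, which ask the same of PRC2 inhibition without a mutated histone, had 0 of the 10 genes called with edgeR at all times together, as 0% of all genes were. Tex101 was the 1 gene of the list with an unadjusted p under 0.05, and DESeq2 called 0. Tex101 was at 2.51 ± 1.88 CPM (SD, n = 8) with GSK343, from 0.332 over a median of 2.28 to 6.24, and at 1.64 ± 2.04 without, and these ranges overlap. Its log2 fold change was 1.00 (SE 0.36, edgeR adjusted p = 0.973). Dazl was at 58.2 ± 19.06 CPM with GSK343, from 34.5 over 52.6 to 83.1, where the difference was 0.40 (SE 0.21, adjusted p = 0.973) on that scale, and Ddx4 had 0.20 (SE 0.13, adjusted p = 0.973). All 10 log2 fold changes were above 0, with a median of 0.26 against -0.01 for all genes tested. At 24 and 72 h alone 8 of 10 were above 0 (median 0.18, all genes -0.02), and edgeR called 0, with 0 at an unadjusted p under 0.05, as did DESeq2. There Tex101 had 0.75 (SE 0.41), Dazl 0.41 (SE 0.29) and Stk31 0.27 (SE 0.23), each at an adjusted p of 1.

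In H3.3K27L cells 3 genes of the list changed. Dazl, Stk31 and Hormad1 were lower in H3.3K27L than in WT-H3.3 ESCs, each by about 2-fold. In the 7 deeper H3.3K27L libraries Stk31 was at 10.01 and 8.20 CPM at 4 h, 10.1 and 9.87 at 8 h, 15.8 and 16.1 at 24 h and 21.3 at 72 h. WT-H3.3 cells had 24.8 and 20.1 CPM of it at 4 h, 24.8 and 11.2 at 8 h, 38.4 and 25.3 at 24 h and 57.6 and 51.7 at 72 h. At each of the 4 times the H3.3K27L libraries were below both WT-H3.3 libraries of that time, the first time of 4 h included. The same order held for Hormad1 and for 4.04% of all genes tested. Hormad1 was at 11.03 and 6.97, 8.50 and 6.16, 8.66 and 9.53, and 22.3 CPM in H3.3K27L cells at 4, 8, 24 and 72 h. In WT-H3.3 cells Hormad1 was at 24.4 and 19.06, 22.2 and 11.1, 34.1 and 19.09, and 31.6 and 28.9 CPM. Dazl was at 15.7 to 25.6 CPM in the 7 H3.3K27L libraries (20.3 ± 3.89, SD), with 17.3 and 24.8 CPM at 24 h, where the WT-H3.3 replicates were at 61.4 and 21.8 and enclosed them.

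With edgeR's quasi-likelihood test over all Dox times, 3 of the 10 genes were called lower and 0 higher, where 2.8% of all genes tested were called lower and 3.43% in either direction. On the log2 scale Stk31 fell by 1.14 (SE 0.18, adjusted p = 0.000227), Hormad1 by 1.08 (SE 0.21, adjusted p = 0.00161) and Dazl by 1.03 (SE 0.22, adjusted p = 0.00522). Tex101, with -1.15 (SE 0.44, adjusted p = 0.114), did not pass, at 0.528 ± 0.446 CPM in the 7 libraries. The members' median was -0.70 (8 of 10 below 0) and that of all genes tested -0.00. Sycp1 (0.05, SE 0.24) and Mael (0.01, SE 0.29) were the 2 above 0. DESeq2 called the same number, 3, and so did edgeR without the shallow library. The test takes the 8 libraries of a line as independent, though they are 2 replicates at each of 4 times. Between 4, 8 and 24 h the replicate differences correlated at 0.837 to 0.905 within H3.3K27L and 0.704 to 0.834 within WT-H3.3. These p-values therefore do not measure the spread between experiments. The count rests on single libraries. It was 0 without replicate 1 of WT-H3.3 at 8 h, where Stk31 (-0.98, adjusted p = 0.000783), Hormad1 (-0.94, adjusted p = 0.00627) and Dazl (-0.85, adjusted p = 0.0188) passed on p and missed the 2-fold limit. It was 1 (Stk31) without replicate 1 of WT-H3.3 at 24 h, without replicate 2 of H3.3K27L at 4 h or without replicate 1 of H3.3K27L at 72 h. The level of Eif2s3y given above separates the H3.3K27L from the WT-H3.3 libraries at every time, and its part in these differences was not tested.

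At 24 and 72 h alone Stk31 was the 1 called gene in H3.3K27L, with -1.22 (SE 0.26, edgeR adjusted p = 0.0263) on that scale, where 0.435% of all genes were called lower. Its 3 deeper H3.3K27L values were below the 4 WT-H3.3 values, as for 5.46% of all genes. The shallow library had no count of it, which at a floor of 3 counts allows up to 45.4 CPM. Hormad1 (-0.94, SE 0.30, adjusted p = 0.177) and Dazl (-0.82, SE 0.33, adjusted p = 0.344) did not pass. The call was lost without any of 6 libraries (replicate 1 of WT-H3.3 at 24 h, both of WT-H3.3 at 72 h, both of H3.3K27L at 24 h and replicate 1 of H3.3K27L at 72 h), where the count was 0.

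**Figure D3:**
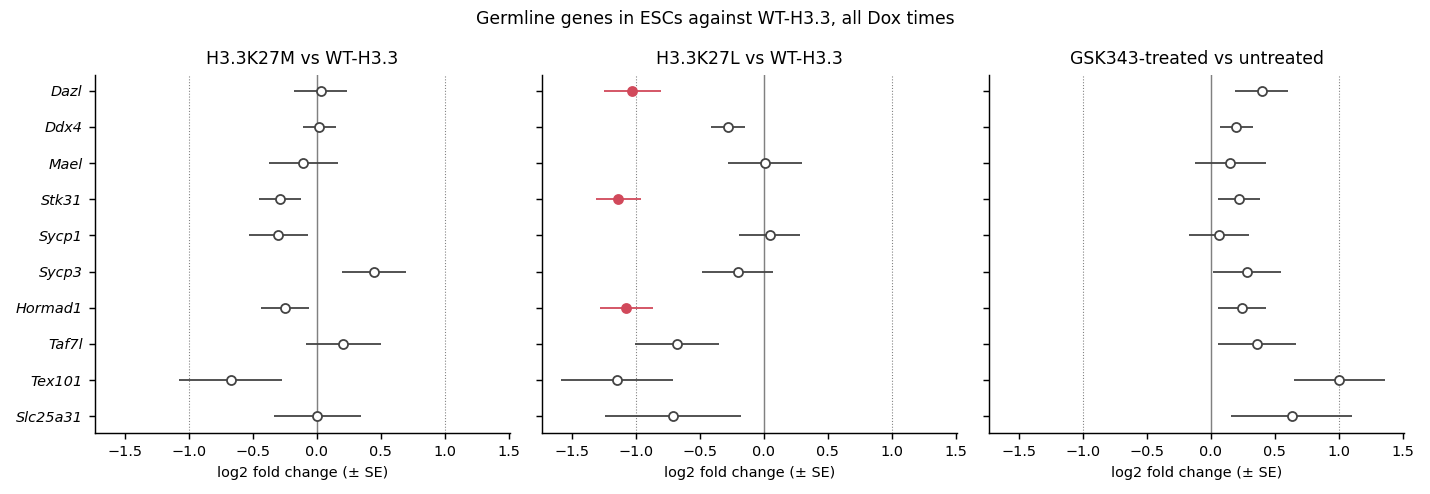
Log2 fold change against WT-H3.3 ESCs over all Dox times for each of the 10 genes in GSK343-treated, H3.3K27M and H3.3K27L cells, with bars of 1 SE from the edgeR fit, dotted lines at a 2-fold change, and filled red points for called genes. Stk31, Hormad1 and Dazl in H3.3K27L are the 3 called points, at -1.14, -1.08 and -1.03, and the GSK343 points all lie above 0.

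Other germline genes moved in H3.3K27L as well. Of 63 further germ cell and meiosis genes, 5 lie on chromosome 8, which was left out, and 45 passed the filter. In H3.3K27L 9 of these were called lower and 0 higher (median log2 fold change -0.46), where 2.8% of all genes were called lower. Among them were Tuba3a, a testis tubulin, at -2.01 (SE 0.22, adjusted p = 3.09e-06), Rpl10l, a testis ribosomal protein, at -1.28 (SE 0.19, adjusted p = 0.000133), Gpat2 at -1.75 (SE 0.29, adjusted p = 0.000443) and Asz1, a piRNA factor, at -3.38 (SE 0.58, adjusted p = 0.000672). The median of the same list was 0.01 in H3.3K27M and 0.15 with GSK343. Of 30 tested genes of silencing factors (PRC1.6, PRC2, DNA methylation and H3K9 methylation) the 1 called in H3.3K27L was Dnmt3l, the cofactor of de novo DNA methylation, at -1.15 (SE 0.30, adjusted p = 0.0171). That is 3.33% of the factors, close to the 3.43% of all genes called. All 7 tested markers of the 2-cell-like state, which a small share of ESCs enters, were called lower in H3.3K27L, among them Usp17lc (-1.85), Zscan4d (-2.08), Gm8300 (-2.17) and Zscan4c (-1.91). Their summed level was 2.7 to 18.1 CPM in the 7 H3.3K27L libraries and 22.2 to 59.9 CPM in WT-H3.3 cells, none of the 7 was at 0 throughout either group, and their part in the germline differences was not tested.

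In WT-H3.3 cells the level of Tex101 rose with time of Dox, and at 72 h alone 5 of the genes rose. Ddx4 was at 13.98 and 13.89 CPM at 4 h and 13.0 and 12.4 at 8 h, 17.7 and 14.5 at 24 h, and 32.3 and 32.7 at 72 h. Tex101 was at 0.612 and 0.386 CPM at 4 h, 0.551 and 0.133 at 8 h, 1.71 and 0.624 at 24 h, and 6.15 and 2.93 at 72 h. For both genes each library of 24 and 72 h was above each of 4 and 8 h. This order held for 4 of the 10 genes, Stk31 and Sycp3 being the others, and for 3.38% of all genes. With edgeR, 24 and 72 h against 4 and 8 h (4 against 4 libraries) gave 1 called gene, Tex101 (log2 fold change 2.52, SE 0.49, adjusted p = 0.0339), where 0.0642% of all genes tested were called higher. Stk31 (1.07, SE 0.23, adjusted p = 0.072) and Ddx4 (0.79, SE 0.18, adjusted p = 0.0855) did not pass, and 9 of the 10 log2 fold changes were above 0 (median 0.90, all genes -0.01). With the replicate number as a block 2 genes were called, Stk31 and Tex101. That block is 1 term shared by all ESC groups, so it is not a paired test of the WT-H3.3 libraries. DESeq2 called 0. The call of Tex101 was lost when any of the 8 libraries was left out (edgeR adjusted p = 0.0546 to 0.285), and without replicate 1 at 8 h Stk31 was called in its place (1.41, adjusted p = 0.0265).

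At 72 h alone more of the genes passed the test. In this contrast, 72 h against 4 and 8 h, which was added after the levels had been seen, 5 of the 10 genes were called higher in WT-H3.3 cells with edgeR and 0 lower, where 0.585% of all genes were called higher. Tex101 rose by 3.49 (SE 0.51, adjusted p = 0.00114), Taf7l by 2.0 (SE 0.46, adjusted p = 0.0378), Sycp1 by 1.56 (SE 0.37, adjusted p = 0.0398), Stk31 by 1.45 (SE 0.27, adjusted p = 0.00734) and Ddx4 by 1.29 (SE 0.21, adjusted p = 0.00263) on the log2 scale. Taf7l was at 6.22 and 5.95 CPM at 72 h against 0.663 to 2.35 at 4 and 8 h, and Sycp1 at 23.0 and 25.4 against 7.35 to 8.88. In all 5 genes both 72 h libraries were above the 4 earlier ones, as for 15.4% of all genes. Dazl did not follow: it was at 45.5 and 36.7 CPM at 72 h and 23.5 to 57.8 at 4 and 8 h (log2 fold change -0.09, SE 0.36). The replicate block again gave 5 calls. DESeq2 gave 3 and a fit of the WT-H3.3 libraries alone 2. The count was 0 without replicate 1 at 72 h, 1 without replicate 2 at 72 h, 2 without replicate 2 at 4 h, and 3 without replicate 1 at 4 h or without replicate 2 at 8 h.

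The other groups gave the following values for the same contrast, each against its own early libraries. GSK343-treated cells had 3 genes called higher, where 2.96% of all genes were, namely Stk31 (1.38, SE 0.28, edgeR adjusted p = 0.00801), Ddx4 (1.05, SE 0.22, adjusted p = 0.0109) and Tex101 (2.21, SE 0.54, adjusted p = 0.0224). Ddx4 was at 33.6 and 30.3 CPM at 72 h with GSK343, above 12.2 to 19.4 earlier, an order that 29.2% of all genes share. These 3 calls fell to 0 without either library of 72 h, and to 1 without replicate 2 at 4 h, without replicate 1 at 8 h or with DESeq2. H3.3K27M cells had 0 called genes with edgeR and 0 with DESeq2 (0.2% of all genes called higher), with 5 at an unadjusted p under 0.05. Ddx4 (0.92, SE 0.22, adjusted p = 0.0788), Stk31 (1.10, SE 0.28, adjusted p = 0.0951) and Tex101 (2.61, SE 0.70, adjusted p = 0.115) had the lowest p there. With the replicate block 2 were called in H3.3K27M, Stk31 (1.09, adjusted p = 0.0322) and Tex101 (2.55, adjusted p = 0.0301), and the count was 1 without replicate 2 at 4 h and no block. The replicate numbers of H3.3K27M do not pair 72 h with 4 h (r = -0.079) or 8 h (-0.118), so these blocked calls are not those of a paired test. H3.3K27L cells, with the shallow library among the 2 of 72 h, had 0 called with edgeR and 1 with DESeq2 (0.05% of all genes called higher), with 5 at an unadjusted p under 0.05 and the lowest p for Sycp1 (1.86, SE 0.47, adjusted p = 0.135), Hormad1 (1.55, SE 0.40, adjusted p = 0.136) and Stk31 (1.07, SE 0.35, adjusted p = 0.25). The difference of the change (24 and 72 h against 4 and 8 h) between each group and WT-H3.3 was tested as an interaction, also added after seeing the data. It was called for 0 of the 10 genes in all 3 groups by edgeR and DESeq2, where edgeR called 0% of all genes. None of the 10 had an unadjusted p under 0.05. Whether the rise follows Dox, H3.3 or time in culture cannot be told apart, since no library without Dox was analysed here. Replicate differences at 72 h correlated with those of earlier times at 0.183 to 0.406 in WT-H3.3, against 0.704 to 0.834 among the earlier times. In the other groups these correlations with 72 h were -0.118 to 0.078. Whether the 72 h libraries were prepared apart is not given in the sources used here, and its part in the rise was not tested.

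**Figure D4:**
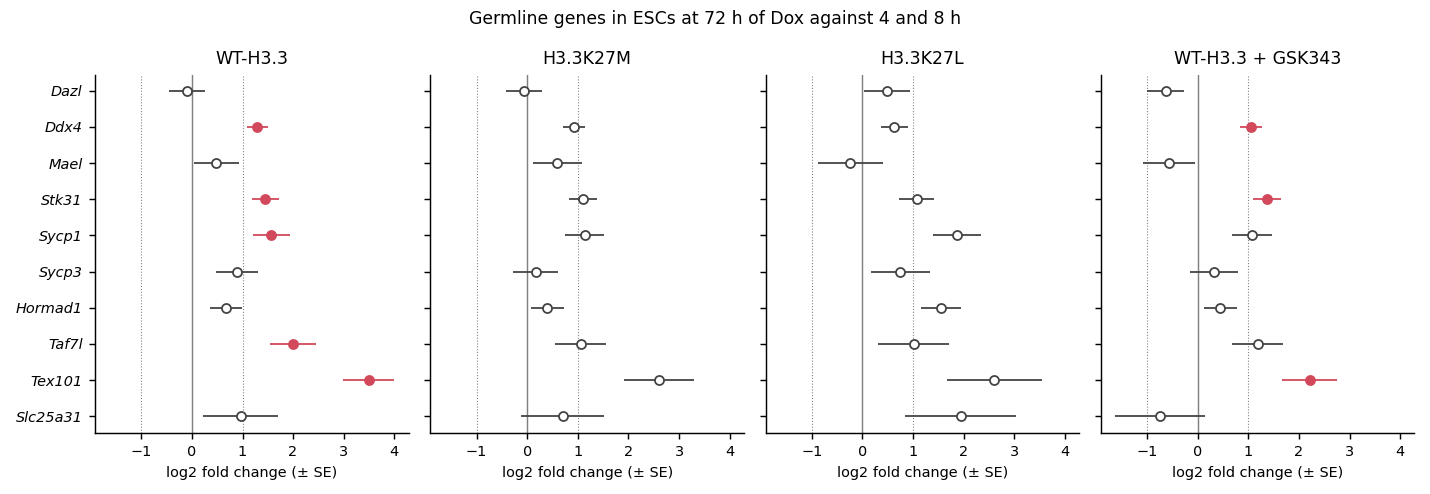
Log2 fold change of 72 h against 4 and 8 h of Dox for each of the 10 genes in the 4 ESC groups, with bars of 1 SE from the edgeR fit, dotted lines at a 2-fold change, and filled red points for called genes. Called genes are 5 in WT-H3.3 and 3 in GSK343-treated cells, and Dazl lies near 0 in WT-H3.3 and H3.3K27M cells.

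Of the 45 further germline genes tested, 6 were called higher at 72 h in WT-H3.3 cells and 0 lower, where 0.585% of all genes were called higher. They included Zcwpw1, a reader of histone marks at recombination sites (1.69, SE 0.22, adjusted p = 0.0006), and Piwil2, a piRNA-binding protein (2.11, SE 0.29, adjusted p = 0.000795). Tdrd9 (2.64, SE 0.38, adjusted p = 0.00104) and Mov10l1 (1.36, SE 0.21, adjusted p = 0.00152), both of the piRNA pathway, were also among them. The count was 3 in H3.3K27M, 1 in H3.3K27L and 5 in GSK343-treated cells, all higher. The median of the 30 silencing factors was 0.08 in WT-H3.3 cells, while Mga (1.10, SE 0.23), Smchd1 (1.12, SE 0.24) and Tet1 (1.26, SE 0.30) were higher at 72 h in GSK343-treated cells. The 8 tested regulators of primordial germ cells and of meiotic entry had a median of 0.03 and the 2-cell-like markers one of 0.37 in WT-H3.3 cells.

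Across the 31 ESC libraries without the shallow one, the genes did not form a single pattern. On log2(CPM + 0.5), Stk31 and Hormad1 had a Pearson r of 0.89, Stk31 and Tex101 0.84, Dazl and Hormad1 0.83 and Ddx4 and Sycp1 0.80, while Dazl and Ddx4 had 0.25. Among 12712 genes averaging 1 CPM or more, Fkbp6, a cochaperone of the piRNA pathway, was among the 3 most similar to Stk31 (r = 0.92) and to Hormad1 (0.93). Ddx4 was most like Hook1 (0.91), Rad50 (0.90) and Zcwpw1 (0.88), and Sycp1 like Rnf219 (0.88) and Piwil2 (0.83). For Dazl the nearest were Cryge, Rnf130 and Rpl10l (each 0.90). Nearest to Sycp3 was Nupr1 (0.77), to Mael Tdrd5 (0.74), to Slc25a31 4930502E18Rik (0.74), to Taf7l Myh3 (0.84) and to Tex101 1810031K17Rik (0.88). No gene of the list had another member among its nearest 3. The libraries behind these coefficients share lines, times and replicates, so the values describe this set only.

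The comparison of RA-treated cells with ESCs asked how the genes behave when cells leave pluripotency, and it split the list. Hormad1 fell to between 0 and 0.676 CPM, and Dazl, Sycp3 and Stk31 fell as well, while Ddx4, Taf7l and Slc25a31 rose. Hormad1 was at 0.588 CPM at 24 h in WT-H3.3 cells, 0.676 in H3.3K27M cells and 0.667 in H3.3K27L cells, which are 3, 15 and 5 counts, and had no count in the 3 libraries of 72 h. In the 24 ESC libraries of the 3 lines it was at 19.3 ± 9.64 CPM (SD), never below 6.16. Dazl, in the same order of lines, was at 2.35, 2.03 and 2.001 CPM at 24 h and 8.90, 11.9 and 5.39 at 72 h, all below the lowest ESC library (15.7 CPM). Leaving out the shallow library, the RA-treated libraries lay below all ESC libraries for 13.4% of all genes tested, Hormad1 and Dazl among them. Sycp3 was at 0.392 to 1.47 CPM in the 6 RA-treated libraries with a median of 0.790, and Stk31 at 4.75 to 9.04 with a median of 7.49. ESC ranges overlapped both, through the 0 of the shallow library and through a deeper H3.3K27L library of 4 h in each, at 1.36 CPM for Sycp3 and 8.20 CPM for Stk31.

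Taf7l went the other way. It was at 10.98 and 30.2 CPM at 24 and 72 h in RA-treated WT-H3.3 cells, 10.99 and 15.8 in H3.3K27M cells and 26.4 and 46.9 in H3.3K27L cells. The highest of 24 ESC libraries had 6.22 CPM, so the groups did not overlap, as for 12.2% of all genes tested with RA higher. Ddx4 was at 67.1, 77.6 and 41.2 CPM at 24 h and 39.1, 49.7 and 30.7 at 72 h, against 16.5 ± 7.39 CPM in ESCs (SD, n = 24) with a highest value of 32.7, so that 5 of the 6 RA-treated libraries lay above every ESC library. Slc25a31 was at 1.33 to 8.45 CPM with a median of 2.76, and its ESC range (0 to 3.18) overlapped. Mael was at 11.6, 11.3 and 8.00 CPM at 24 h and 5.34, 1.94 and 2.22 at 72 h, and 3.42 ± 1.47 in ESCs. The ESC means include the shallow library.

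With edgeR (6 against 24 libraries, mean of the differences in the 3 lines) 7 of the 10 genes were called, where 47.6% of the 16370 genes tested were. The 4 lower ones compare with 20.6% of all genes called lower and the 3 higher ones with 27% called higher. On the log2 scale the change was -5.17 for Hormad1 (SE 0.42, adjusted p = 7.75e-14), -2.85 for Dazl (SE 0.32, adjusted p = 3.16e-10), -2.28 for Sycp3 (SE 0.33, adjusted p = 9.53e-08) and -1.67 for Stk31 (SE 0.32, adjusted p = 1.42e-05). Taf7l had 3.21 (SE 0.29, adjusted p = 9.14e-13), Slc25a31 1.69 (SE 0.41, adjusted p = 0.000423) and Ddx4 1.57 (SE 0.21, adjusted p = 1.6e-08). Mael stayed just under 2-fold (0.97, SE 0.27, adjusted p = 0.00162), and Sycp1 (-0.54, SE 0.34) and Tex101 (-1.29, SE 0.87) did not pass. The median log2 fold change of all genes was 0.06, and DESeq2 called 8 of the 10. The test takes libraries of different Dox times as independent, so these p-values do not measure the spread between experiments. Markers of other cells were also called higher in RA-treated cells, namely 7 of 7 tested 2-cell-like markers (median log2 fold change 2.30), 7 of 9 fibroblast markers (6.28) and 8 of 8 extraembryonic endoderm markers (7.01). The fibroblast markers summed to 78.9 to 469 CPM on RA against 3.69 to 16.7 in ESCs, and the 2-cell-like markers to 34.0 to 209 CPM against 0 to 59.9. Their part in the changes of the germline genes was not tested. The interaction of stage and line was called for 0 of the 10 genes by edgeR and DESeq2, both for H3.3K27M (0 at an unadjusted p under 0.05, 0.00611% of all genes called) and for H3.3K27L. In H3.3K27L 1 had an unadjusted p under 0.05, Taf7l, with a difference of the changes of 1.89 (SE 0.80, adjusted p = 0.561, 0.11% of all genes called).

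**Figure D5:**
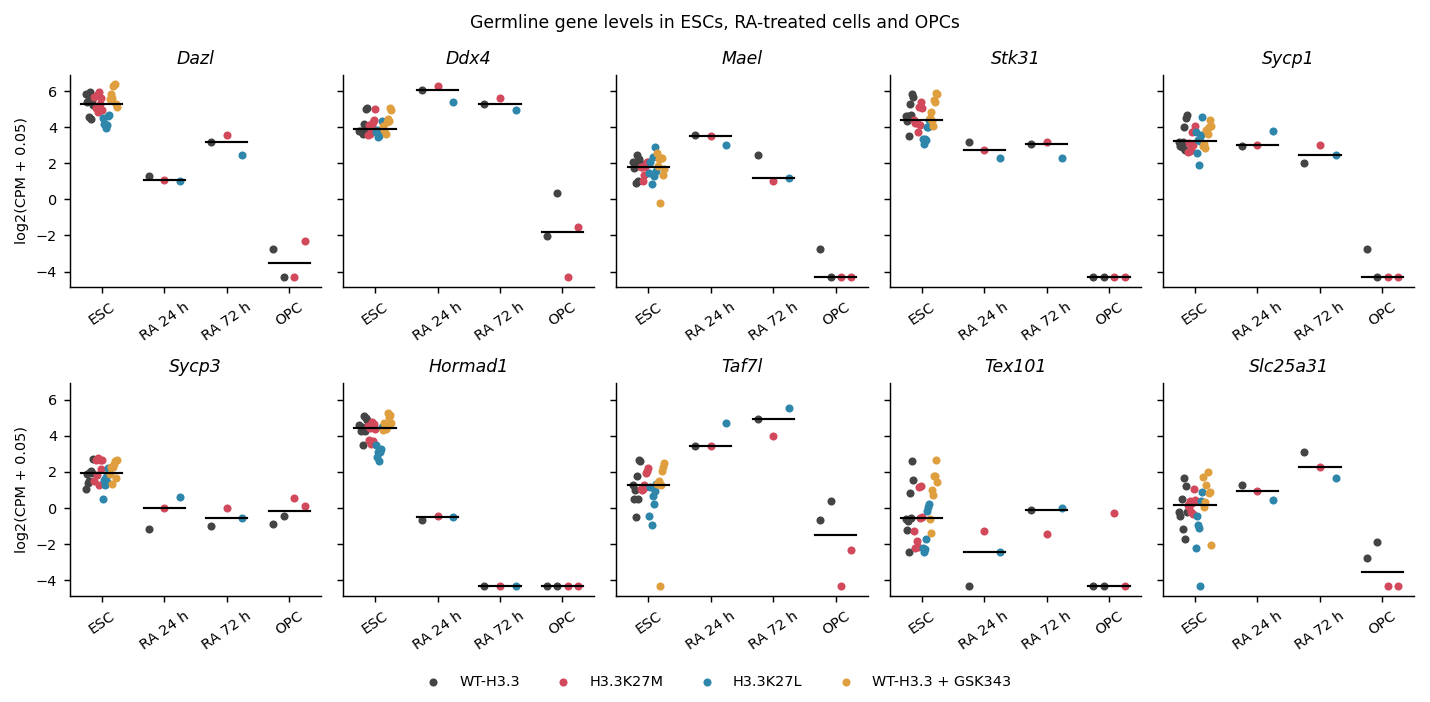
Level of each of the 10 genes as log2(CPM + 0.05) in ESCs, RA-treated cells at 24 h and at 72 h of Dox, and OPCs, with a point per library and a black bar at the median (the library of 68378 counts is left out). RA-treated cells lie below ESCs for Hormad1 and Dazl and above them for Taf7l, and OPC points lie at or near the floor for most genes.

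Within RA-treated cells 3 genes rose and 1 fell between 24 and 72 h of Dox. The 24 h libraries held 5050115 to 22269533 counts and those of 72 h 2239137 to 3268238. Whether both times were prepared together is not given in the sources used here, so Dox time, depth and preparation cannot be told apart. Of the 7 genes that passed the filter there, edgeR with the line as a block (3 against 3 libraries) called 4, while 42.1% of 11692 genes were called. On the log2 scale Dazl rose by 2.28 (SE 0.35, adjusted p = 0.000104), Slc25a31 by 1.72 (SE 0.38, adjusted p = 0.00145) and Taf7l by 1.13 (SE 0.21, adjusted p = 0.00039), and each of these was higher at 72 h in all 3 lines. Slc25a31 was at 2.35, 1.85 and 1.33 CPM at 24 h and 8.45, 4.84 and 3.17 at 72 h, with WT-H3.3 first and H3.3K27L last. Mael fell by 1.57 (SE 0.35, adjusted p = 0.00156). Ddx4, lower at 72 h in the 3 lines, had -0.39 (SE 0.14, adjusted p = 0.0269), which is under 2-fold, and Sycp1 (-0.49, SE 0.32) and Stk31 (0.39, SE 0.28) did not pass. Sycp3, Hormad1 and Tex101 were not tested, with at most 21, 15 and 8 counts in a library. The count of 0 for Hormad1 in 3 libraries at 72 h stands at least 1.82-fold below its 24 h mean at a floor of 3 counts over the group. The summed level of the 2-cell-like markers was 34.0 to 151 CPM at 24 h and 44.4 to 209 at 72 h, and that of extraembryonic endoderm markers 1016 to 6797 and 709 to 2286, and the part of these cells in the changes was not tested.

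Between the lines within RA-treated cells (2 against 2 libraries, Dox times together) edgeR called 0 of the 7 tested genes in H3.3K27M and 0 in H3.3K27L, with 0 at an unadjusted p under 0.05, as it called 0% of 12233 genes. DESeq2 called 0 of them in each. This fit pools the Dox times, as the study did. With Dox time as a block edgeR also called 0 of the 7 in each, but 445 of all genes in H3.3K27L and 2 in H3.3K27M, and Ddx4 in H3.3K27L then had -0.57 (adjusted p = 0.0801) and Stk31 -0.87 (adjusted p = 0.177). The lowest p-values in H3.3K27L were those of Stk31 (-0.87, SE 0.51), Ddx4 (-0.57, SE 0.38) and Slc25a31 (-1.32, SE 1.11), and in H3.3K27M those of Taf7l (-0.70, SE 0.74), Sycp1 (0.45, SE 0.61) and Slc25a31 (-0.77, SE 1.09), each at an adjusted p of 1. Stk31 was at 8.83 and 8.45 CPM in WT-H3.3 and 4.80 and 4.75 CPM in H3.3K27L RA-treated cells, values that do not overlap, as for 8.32% of all genes tested with H3.3K27L lower. The intervals are wide: the 95% interval of the log2 difference of Dazl between H3.3K27M and WT-H3.3 ran from -2.21 to 2.76. It is a normal interval, which is too narrow for 2 against 2 libraries.

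OPCs held next to none of these transcripts. Stk31 and Hormad1 had no count in any of the 4 OPC libraries, Sycp1 and Mael had 1 count in all, Dazl 2, Slc25a31 3 and Tex101 5. Ddx4 had 2, 11, 0 and 2 counts (0.194, 1.24, 0 and 0.296 CPM) in WT-H3.3 at 24 and 72 h and H3.3K27M at 24 and 72 h. Taf7l had 6, 11, 0 and 1 counts in the same order (0.582, 1.24, 0 and 0.148 CPM). Sycp3 had counts in all 4 libraries, at 0.485, 0.676, 1.42 and 1.04 CPM. The 16 ESC libraries of the 2 lines held 28.3 ± 13.5 CPM of Stk31 and 21.7 ± 6.93 of Hormad1 (SD).

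With edgeR (4 against 16 libraries) all 10 genes were called lower in OPCs than in ESCs, where 36.5% of all genes tested were called lower and 67.1% in either direction. For 8 of the 10, all but Taf7l and Tex101, every OPC library was below every ESC library, as for 32.6% of all genes. Against the floor of 3 counts over the 4 libraries, Stk31 was at least 304-fold and Hormad1 at least 233-fold lower in OPCs. The ratio of ESC to OPC level was 696 for Dazl (95% exact Poisson interval of the OPC counts 193 to 5751), 369 for Sycp1 (66.2 to 14578), 112 for Mael (20.2 to 4443) and 12.9 for Slc25a31 (4.41 to 62.5). These intervals and floors cover counting error only. The log2 fold change was -5.75 (SE 0.50, adjusted p = 1.99e-13) for Ddx4, -3.93 (SE 1.34, adjusted p = 0.00736) for Tex101, -3.34 (SE 0.69, adjusted p = 3.61e-05) for Taf7l and -2.31 (SE 0.36, adjusted p = 2.32e-07) for Sycp3, the smallest fall of the list. The median over the 10 was -6.26, also with the 2 genes without counts at their bound, and -0.17 over all genes. The tests of OPCs against ESCs and against RA-treated cells take libraries of different Dox times as independent. Their p-values do not measure the spread between experiments.

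Against RA-treated cells of the same 2 lines (4 against 4 libraries) 8 of the 10 genes were called lower in OPCs, where 29.7% of all genes were called lower. Ddx4 differed by a log2 ratio of -7.41 (SE 0.53, adjusted p = 9.59e-15) and Taf7l by one of -5.82 (SE 0.72, adjusted p = 8.46e-09), and Slc25a31, the other gene called higher on RA, was also called lower. Stk31 was at least 88.3-fold lower and Hormad1, already near 0 on RA, at least 3.40-fold lower. The RA level of Hormad1 comes from the 24 h libraries, since both of 72 h had no count, and its call was lost without the 24 h library of WT-H3.3 (-2.60, edgeR adjusted p = 1) or of H3.3K27M (-2.32, adjusted p = 1). Sycp3 (0.42, SE 0.54, adjusted p = 0.525) and Tex101 (-2.11, SE 1.86, adjusted p = 0.332) were not called, and Sycp3 levels of 0.392 to 0.968 CPM in RA-treated cells and 0.485 to 1.42 in OPCs overlapped. None of the 10 genes passed the filter among the 4 OPC libraries, so they were not tested between H3.3K27M and WT-H3.3 OPCs, where 27.9% of the 12467 genes tested were called. Without the filter edgeR called 1 of them, Taf7l, lower in H3.3K27M OPCs (0 and 1 counts against 6 and 11), and the same gene passed the filter and was called when the 72 h H3.3K27M library was left out. The stage and line interaction was called for 0 of 10 by edgeR and DESeq2 (13.2% of all genes), with 1, Taf7l, at an unadjusted p under 0.05. The summed level of 9 fibroblast markers was 686 and 726 CPM in WT-H3.3 OPCs and 42.8 and 43.2 in H3.3K27M OPCs, and its part in the low counts was not tested. The counts of the germline genes were near 0 in both lines.

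Of 47 other germline genes tested, 12 were called higher and 22 lower in RA-treated cells (median log2 fold change -0.64), and 4 higher and 38 lower in OPCs (median -4.94) against ESCs. These are 72.3% of them on RA, where 47.6% of all genes were called, and 89.4% in OPCs, where 67.1% were. On RA, Tdrd12 (-5.36, SE 0.26) and Tuba3a (-4.29, SE 0.40) fell and Tdrd1 (4.57, SE 0.27) and Ddx25 (1.97, SE 0.17) rose. Tdrd12 and Tdrd1 are Tudor proteins of the piRNA pathway. Stra8, the RA-responsive gene of meiotic entry, rose by 2.95 (log2, SE 0.28) to 43.6 CPM in RA-treated cells, and had no count in OPCs. Ddx25, a testis RNA helicase, rose by 3.02 (SE 0.19) in OPCs, where Tdrd12 (-9.27, SE 0.44), Taf4b (-3.84, SE 0.24) and Rnf17 (-11.05, SE 0.75) fell. Of the 8 tested regulators of primordial germ cells and meiotic entry 7 were called lower on RA, among them Prdm14 (-9.93, SE 0.42), and Stra8 higher, and 7 were lower in OPCs. Stra8 is counted in both lists.

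Among the 30 silencing factors tested, 2 were called higher and 12 lower in RA-treated cells, and 4 higher and 21 lower in OPCs, against ESCs. These are 46.7% of the factors on RA, close to the 47.6% of all genes, and 83.3% in OPCs, where 67.1% of all genes were called. The 4 of lowest adjusted p on RA were Tet3 (3.37, SE 0.21), Uhrf1, which brings DNMT1 to replicating DNA (-2.45, SE 0.17), and the PRC1.6 subunits Pcgf6 (-1.28, SE 0.11) and L3mbtl2 (-1.70, SE 0.15). Tet3 is a 5-methylcytosine dioxygenase, so its rise is not that of a silencer. In OPCs they were Pcgf6 (-2.67, SE 0.14), Uhrf1 (-4.28, SE 0.24), Dnmt3b (-4.52, SE 0.26) and Dnmt3l (-10.9, SE 0.69). E2f6, the PRC1.6 subunit that binds E2F elements, was higher in both, at 23.1 CPM in ESCs of the 3 lines and 81.7 CPM on RA (1.82, SE 0.17), and by 2.93 (SE 0.19) in OPCs. It is named here after its values were seen. These are transcript levels, and neither binding of these factors nor DNA methylation at the 10 promoters was analysed here.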

How the data were processed

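The authors aligned the reads with STAR 2.7.1 to mm9, allowing up to 10 mismatches, and deposited raw counts per gene in 3 tables (ESCs, RA-treated cells and OPCs), without normalization. The counting tool, annotation and strand setting are not given in the sources used here, and the library kits named are QuantSeq 3′ and KAPA. Of the 155 samples of the series, 42 are RNA-seq libraries of these tables, and the other 113 (ChIP-seq) were not analysed here. Chromosome 8 (5.85% of counts) was left out, as in the study's methods. Of 55471 genes, 32589 were matched to a symbol by gene ID, with RefSeq used where the gene names held none. These genes held 98.2% of counts.

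Differential expression was tested on the deposited counts with edgeR 4.0.16 (TMM, filterByExpr, glmQLFit and glmQLFTest) in R 4.3.3, with 1 mean per line or treatment and Dox time in ESCs, 1 per stage and line over all 42 libraries for stages, and p-values adjusted by Benjamini-Hochberg over all genes tested. The cut-offs were those of the study. The script was tested on simulated data. Alternatives were DESeq2 1.42.0, RLE scaling, no filter, fewer libraries in the model, a replicate block, Dox time as a block between RA-treated lines, leaving out each library, and, for stages, Dox times of 24 and 72 h only. The 72 h contrasts and the interactions of line and Dox time were added after seeing the data. The replicate numbers were checked by the correlation, across 8495 genes, of differences between replicates. It was 0.608 to 0.714 at the 4 times for H3.3K27M with WT-H3.3 ESCs and 0.183 to 0.834 between times within WT-H3.3, so the numbers pair these libraries. The ESC replicates were biological, made weeks apart, and in RA-treated cells and OPCs the Dox times of a line stand in for replicates. Tests over several Dox times took the libraries of a replicate number as independent. Figures were drawn with Matplotlib 3.10.9 in Python 3.11.15.

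All 10 genes are named. Fold changes are given for called genes or the 3 of lowest p, and of the other lists counts and up to 4 called genes per main comparison. Similar genes are the 3 of highest Pearson r. The genes, lists and tests were chosen with earlier results of these data known, so a pattern seen in those is not independent support. E2f6 was named after its values were seen.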

Additional observations from a re-analysis of the deposited data

Results flagged for a closer look

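In 58 groups of 4 to 10 libraries (10 genes, each line or stage), 10 values stood apart from the rest of their group by Dixon's test at the 95% level, where chance gives about 1 in 20. Of these 3 belong to the H3.3K27L library of 68378 counts (72 h, replicate 2): Ddx4 at 0 CPM (other libraries 10.9 to 20.5), Sycp1 at 87.4 CPM from 6 counts (3.71 to 23.3) and Hormad1 at 43.7 CPM from 3 counts (6.16 to 22.3). In OPCs, Sycp1 and Mael at 0.0970 CPM in WT-H3.3 at 24 h rest on 1 count each, and Tex101 at 0.791 CPM in H3.3K27M at 24 h on 5 counts, with 0 in the other 3 libraries. The remaining 4 are ESC libraries of 72 h with higher levels. In H3.3K27M cells these were Ddx4 at 32.5 CPM in replicate 2 (others 11.9 to 21.1) and Slc25a31 at 2.004 CPM in replicate 1 (0.752 to 1.34). In WT-H3.3 cells they were Sycp3 at 6.60 CPM in replicate 2 (2.04 to 4.12) and Tex101 at 6.15 CPM in replicate 1 (0.133 to 2.93).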

How the results depend on the processing

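The count of called genes among the 10 was as follows. OPCs against ESCs gave 10 under every alternative, OPCs against RA-treated cells 7 to 8, RA-treated cells against ESCs 7 to 9 and RA at 72 against 24 h 3 to 5. For H3.3K27L over all times (3) it ranged from 0 to 4 when 1 library was left out, and was 4 with the replicate block. For H3.3K27L at 24 and 72 h (1) it was 2 with the block, 0 with 72 h libraries only, and 0 to 1 leaving out 1 library. For WT-H3.3 at 24 and 72 h against 4 and 8 h (1) it was 0 with DESeq2, 4 without the filter, 2 with the block, 0 with only the libraries compared, 5 for 72 h, and 0 to 1 leaving out 1 library. At 72 h against 4 and 8 h it was 3 (DESeq2) and 2 (only the libraries compared) in WT-H3.3, with 0 to 4 leaving out 1 library. In H3.3K27M (0) it was 3 without the filter, 2 with the block and 0 to 1 leaving out 1 library, in H3.3K27L (0) 1 with DESeq2 and 2 without the filter, and in GSK343-treated cells (3) 1 with DESeq2, 5 with only the libraries compared and 0 to 3 leaving out 1 library. For H3.3K27M against WT-H3.3 OPCs (0 tested) it was 1 without the filter (Taf7l) and 0 to 1 leaving out 1 library. The cause of these moves was not tested.

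The replicate block was a single term for replicate number, shared by all 32 ESC libraries, those of H3.3K27L and GSK343-treated cells included. It moved no count of calls beyond those above by over 1.5 times. The numbers pair WT-H3.3 with H3.3K27M and the times of WT-H3.3. Against WT-H3.3 the correlation ran from -0.707 to 0.261 for H3.3K27L and from -0.460 to 0.586 for GSK343. The numbers thus do not pair these 2 groups with WT-H3.3 throughout. The block was fitted to them all the same, as 1 term over groups whose replicate differences partly run in opposite directions. Its calls are therefore not those of a paired test in any group, WT-H3.3 and H3.3K27M included. Between 4, 8 and 24 h it was 0.682 to 0.882 within H3.3K27M, 0.837 to 0.905 within H3.3K27L and 0.331 to 0.576 within GSK343-treated cells, but with 72 h it was -0.118 to -0.079, -0.076 to -0.0027 and -0.050 to 0.078, so the numbers pair these libraries up to 24 h and not with 72 h. With Dox time as a block, RA-treated H3.3K27L differed from WT-H3.3 in 445 genes (0 without). Stages could not be blocked by replicate.

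Of 1753 fold changes under alternatives, 1656 kept direction and side of the threshold, 71 lost and 14 gained the call, and 12 turned. With 72 h only, Tex101 (-0.018) and Dazl (-0.16) turned for GSK343 at late times. The others turned when 1 library was left out, and the values give their range over the libraries left out. Without the WT-H3.3 RA-treated library of 72 h these were Taf7l for the change of H3.3K27M on RA (-1.15 to 0.29) and for H3.3K27M on RA (-1.32 to 0.37), and Slc25a31 on RA in H3.3K27M (-1.76 to 0.59) and H3.3K27L (-2.16 to 0.026). Mael turned for the change of H3.3K27L on RA (-2.09 to 0.011) without the 24 h WT-H3.3 library. For the late change, Slc25a31 turned in H3.3K27M (-1.26 to 0.64) and GSK343 (-2.32 to 0.24) without replicate 1 of WT-H3.3 at 24 h, and Mael (-0.81 to 0.50) and Taf7l (-0.93 to 3.13) in GSK343 without its replicate 1 at 8 h. Stk31 in H3.3K27L at 72 h (-9.34 to 1.16) turned without replicate 1, which leaves the library of 68378 counts. None of the values that turned was called in the report. The scaling moved the median of all genes from 0.06 (TMM) to 0.27 (RLE) for RA and from -0.17 to 0.10 for OPCs, and no direction of a member turned in these. Counts of 0 to 3 in OPCs and of 0 to 15 for Hormad1 on RA limit what can be measured there.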
